A study of Mus musculus with 7 samples.

Results

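The promoters of the nuclear genes for the mitochondrial respiratory chain were examined in freshly sorted mouse muscle stem cells (MuSCs). The members were the protein-coding RefSeq genes on chromosomes 1 to 19 named Nduf (A, B, C, S or V and a number), Sdha to Sdhd, Uqcr or Cox4 to Cox8, without the assembly factors. This rule took 67 of 20232 autosomal protein-coding promoters and used no measured value. The genes Ndufa1, Ndufb11 and Cox7b lie on the X chromosome and were outside the rule. The subunit genes Cyc1 and Ndufab1 did not match the names and are given with related genes below. MuSCs lie quiescent along myofibers and repair the muscle after injury. The study performed ATAC-seq, in which the Tn5 transposase cuts and tags accessible DNA, on 5000 sorted MuSCs per library to ask whether loss of the E3 ubiquitin ligase Nedd4L alters their chromatin. There were 4 Nedd4L-cKO and 3 WT libraries from hindlimb muscles of male mice in the second month of life. Nedd4L-cKO mice were Nedd4L fl/fl Pax7 cre/+, so that exon deletion follows Pax7 expression and is inherited by all progeny of Pax7-expressing cells, myofibers included. The Cre is active from development onward, and the alleles that the WT mice carried are not given in more detail in the sources used here.

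The respiratory chain passes electrons from NADH and succinate to oxygen and stores the energy as a proton gradient across the inner mitochondrial membrane. Complex I takes electrons from NADH, complex II from succinate, complex III hands them to cytochrome c, and complex IV reduces oxygen. A few core subunits of the chain are encoded in mitochondrial DNA. The remainder are scattered over the nuclear chromosomes and are needed in nearly every cell, and most of them are described here. Complex IV also has subunits with tissue isoforms: Cox6a2, Cox7a1 and Cox8b are the forms of heart and skeletal muscle, and Cox6a1, Cox7a2 and Cox8a are their ubiquitous partners.

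For each library the authors deposited broad peaks with a pileup, the mean coverage by extended tags. They also gave a fold enrichment, the ratio of pileup to the local background of that library. A peak was assigned to a promoter when it overlapped the 1 kb on either side of the transcription start site (TSS), and the peak with the highest pileup was taken. As pileup grows with depth, each value was also expressed as a percentile among all peaks of its library. The peak with the highest value in a library stands at 100. The libraries held 14.4 to 20.1 M tags (M, 10 to the power of 6) after filtering and 69302 to 79158 peaks, and WT replicate 3 was the sole library whose reads came from lane 2. In a peak that is weaker in one library, fewer cells with an open site and less opening per cell cannot be told apart. The labelled cell type was checked against its markers. All 9 MuSC markers (Pax7, Myf5, Myod1, Cdh15, Itga7, Vcam1, Sdc4, Calcr and Chrdl2) had a promoter peak in all 7 libraries, and 0 of 4 immune markers had any. The targeted gene Nedd4l held 31 to 35 peaks in Nedd4L-cKO and 33 to 34 in WT, which does not show whether the allele was recombined.

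The promoter sequences of the isoforms differ in a feature that the selection rule did not use. The 250 bases before the start, read 5′ to 3′ along the gene from RefSeq on GRCm38.p6 (mm10), are shown for 3 pairs with every CpG in capitals, because CpG-rich promoters are typical of genes used in all tissues. The ubiquitous Cox8a (chr19:7217617-7217866, minus strand) had 11 CpGs and the muscle isoform Cox8b (chr7:140900447-140900696, minus strand) had 1. Cox7a2 (chr9:79759854-79760103, minus strand) had 14 and the muscle isoform Cox7a1 (chr7:30183921-30184170, plus strand) had 4. Ndufb4 (chr16:37654369-37654618, minus strand) had 21, and its short copy Ndufb4b (chr19:25032858-25033107, plus strand) had 3.
Cox8a: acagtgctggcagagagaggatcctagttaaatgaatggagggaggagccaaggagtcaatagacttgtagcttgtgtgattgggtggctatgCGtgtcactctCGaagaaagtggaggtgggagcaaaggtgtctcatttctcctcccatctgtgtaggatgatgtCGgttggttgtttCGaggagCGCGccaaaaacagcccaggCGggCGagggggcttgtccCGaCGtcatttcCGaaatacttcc
Cox8b: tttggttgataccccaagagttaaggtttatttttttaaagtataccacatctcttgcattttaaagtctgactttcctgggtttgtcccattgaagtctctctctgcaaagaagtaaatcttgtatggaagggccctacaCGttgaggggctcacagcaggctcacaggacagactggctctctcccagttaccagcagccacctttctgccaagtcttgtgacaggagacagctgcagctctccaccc
Cox7a2: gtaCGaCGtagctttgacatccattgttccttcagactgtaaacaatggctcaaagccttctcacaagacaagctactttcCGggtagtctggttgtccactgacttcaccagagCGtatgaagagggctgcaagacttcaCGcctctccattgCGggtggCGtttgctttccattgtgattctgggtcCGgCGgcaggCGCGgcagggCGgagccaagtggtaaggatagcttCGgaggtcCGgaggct
Cox7a1: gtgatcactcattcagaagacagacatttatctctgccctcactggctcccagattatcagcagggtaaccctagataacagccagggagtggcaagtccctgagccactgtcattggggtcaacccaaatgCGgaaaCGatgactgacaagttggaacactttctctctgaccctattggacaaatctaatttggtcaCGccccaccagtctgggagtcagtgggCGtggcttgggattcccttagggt
Ndufb4: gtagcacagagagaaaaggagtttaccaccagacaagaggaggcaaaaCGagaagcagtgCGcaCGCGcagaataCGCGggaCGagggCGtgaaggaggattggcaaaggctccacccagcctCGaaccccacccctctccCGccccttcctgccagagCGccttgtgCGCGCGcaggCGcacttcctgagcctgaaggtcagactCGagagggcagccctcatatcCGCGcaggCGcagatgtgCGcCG
Ndufb4b: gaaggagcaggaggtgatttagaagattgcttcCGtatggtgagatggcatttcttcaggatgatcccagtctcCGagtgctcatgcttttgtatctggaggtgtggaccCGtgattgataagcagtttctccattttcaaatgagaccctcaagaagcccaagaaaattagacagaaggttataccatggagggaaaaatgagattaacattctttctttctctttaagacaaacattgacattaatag

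Over the whole promoter sequence, from 250 bases before to 50 after the start, the ratio of observed to expected CpG was 0.842 for Cox8a and 0.115 for Cox8b, and 0.833 for Cox7a2 and 0.333 for Cox7a1. RefSeq gave a promoter sequence for 52 of the 67 members. Among the 47 ubiquitous members with a sequence the median ratio was 0.828, with a lowest value of 0.482. Cox7a1 and Cox8b were therefore below every ubiquitous member, as were the testis isoform Cox6b2 (0.432) and Ndufb4b (0.399). The testis isoform Cox7b2 (0.564) was not, and lay above the lowest ubiquitous value. No sequence of Cox6a2 was used here. Over all 16457 autosomal promoters with a sequence the median was 0.597, over those with a peak in all libraries 0.776, and over those with a peak in none 0.165.

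The respiratory chain promoters were accessible in MuSCs of both genotypes. A peak was called at 62 of 67 members in all 7 libraries, and the other 5 had none in any library. No member was called in a part of the libraries, so calls did not separate the genotypes (62 members in each of the 4 Nedd4L-cKO and each of the 3 WT libraries). Among all autosomal promoters 63.0% had a peak in all libraries, 31.5% in none and 5.52% in 1 to 6 of them. The 5 members without a peak were Cox6a2, Cox7b2 and Cox8c, which are complex IV isoforms of muscle and testis, and the Ndufb4 copies Ndufb4b and Ndufb4c. All 57 ubiquitous members were called in every library. The call at each of these 57 is a statement of an open site near the start and not of a level of transcription.

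**Figure D1:**
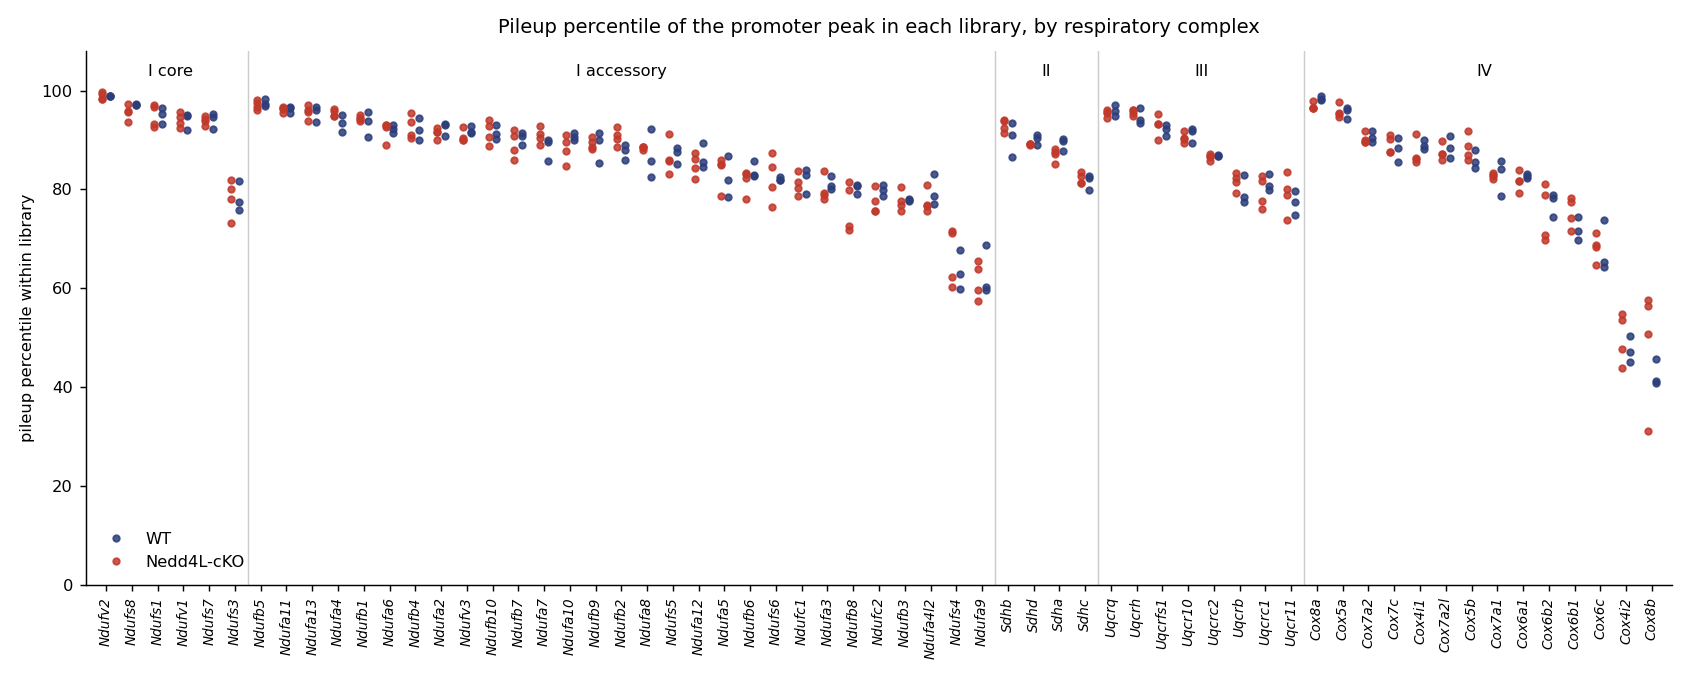
Pileup percentile within the library (y axis, 0 to 100) of the promoter peak of 61 members with a peak in all 7 libraries, ordered by complex and by median within it. Each point is 1 library, red for the 4 Nedd4L-cKO and blue for the 3 WT, and Cox8b and Cox4i2 lie lowest in both genotypes.

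The pileup of the peaks, a mean over the peak and not the height of its summit, was compared next. The median pileup percentile of the members was 87.7 to 89.6 in the Nedd4L-cKO libraries and 88.2 to 89.0 in the WT libraries, beside 85.6 to 87.3 over all promoters with a peak. The order in pileup depended on the peaks kept: at a −log10 q of at least 5 the median over libraries was 75.3 for members and 78.0 for all promoters. By fold enrichment the members stood further from the other promoters: their median percentile was 90.4 to 91.7 in Nedd4L-cKO and 88.6 to 90.02 in WT, beside 76.5 to 79.7 over all promoters (82.2 beside 65.7 at a −log10 q of at least 5). A median fold percentile of at least 90 was found for 34 of the 62 called members (54.8%) and for 29.7% of all promoters called in every library. The median peak length over members was 1188.5 to 1285 bp in Nedd4L-cKO and 1165.5 to 1312.5 bp in WT, and over all promoters 1249 to 1364 bp. No test was run over the list, and these values are a description. The spread of a member between libraries was small against the spread between members: its SD over 7 libraries had a median of 2.04 percentile points, and 2.12 over all promoters called in every library.

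Within complex I, the 7 nuclear-encoded core subunits, which include those with the flavin and the iron-sulfur clusters, had a median pileup percentile of 95.3. Ndufv2, an iron-sulfur subunit of the NADH-oxidising module, had the highest value of all members, with 98.4, 99.7, 98.3 and 99.3 in Nedd4L-cKO replicates 1 to 4 and 98.9, 99.0 and 98.9 in the WT replicates. The lowest core subunit was Ndufs3, which lay between 73.3 and 81.8. Further core subunits were the iron-sulfur subunits Ndufs1 (92.7 to 97.1), Ndufs7 (92.2 to 95.2) and Ndufs8 (93.7 to 97.4) and the flavin-binding Ndufv1 (92.0 to 95.6), each given as its range over 7 libraries. The 29 called members that are accessory subunits, which surround the core, spanned 60.2 to 97.3 around a median of 88.9. Ndufb5 led them with 96.1 to 98.2, and Ndufa9, which was lowest, ranged from 57.4 to 68.7. Among the accessory subunits Ndufs4 (59.8 to 71.7) and Ndufb3 (75.7 to 80.6) were also low, and Ndufa11 (95.5 to 96.8) and Ndufa13 (93.7 to 97.2) were also high, named after their values were seen. Both genotypes overlapped in all of these.

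Complex II is the succinate dehydrogenase and the sole complex with no mitochondrially encoded subunit. All 4 of its genes were called in every library. The gene of the iron-sulfur subunit Sdhb had the highest pileup percentile (median 92.4, range 86.5 to 94.0), followed by the membrane anchor Sdhd (89.3, 89.0 to 90.9), the flavoprotein Sdha (87.8, 85.1 to 90.2) and the membrane anchor Sdhc (82.3, 80.0 to 83.5). The ranges of neighbours in this order overlapped except for those of Sdha and Sdhc. By fold the order was another: Sdha stood at 98.6, Sdhd at 94.9, Sdhc at 88.9 and Sdhb at 59.1. In Nedd4L-cKO and WT the pileup percentile was 87.0 ± 1.35 (SD, n = 4) and 89.3 ± 1.34 (SD, n = 3) for Sdha, and 92.9 ± 1.22 and 90.3 ± 3.50 for Sdhb.

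The 8 members of complex III had a median pileup percentile of 88.6 and ranged from 78.8 for Uqcr11 to 95.8 for Uqcrq. The catalytic Rieske iron-sulfur protein Uqcrfs1 had a median of 93.0, the core proteins Uqcrc1 ranged from 75.97 to 83.1 and Uqcrc2 from 85.7 to 87.2, and the small subunits Uqcrb from 77.5 to 83.3 and Uqcr10 from 89.3 to 92.2. The 14 called genes of complex IV had a median of 85.0 and the widest range, 45.8 to 98.0. Cox8a stood at the top of complex IV and its muscle partner Cox8b at the bottom. The 10 ubiquitous genes of complex IV lay between 68.3 and 98.0, with a median of 87.7. Below Cox8a, the pileup percentile of Cox5a ranged from 94.3 to 97.7, of Cox5b from 84.4 to 91.8, of Cox7c from 85.5 to 91.0, of the supercomplex factor Cox7a2l from 85.9 to 90.8 and of Cox6c from 64.4 to 73.7. Cox7c stood highest of all members by fold, at 99.6 to 99.9, with a peak of 887 bp in the median.

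The muscle isoforms were set apart. Cox8a (chromosome 19, 7215158 to 7217616, minus strand) had pileup percentiles of 96.6, 96.6, 96.4 and 98.0 in Nedd4L-cKO replicates 1 to 4 and of 98.8, 98.1 and 98.2 in the WT replicates. Cox8b (chromosome 7, 140898942 to 140900446, minus strand) had 57.6, 31.0, 50.8 and 56.4 in Nedd4L-cKO and 45.8, 40.8 and 41.1 in WT. The deposited pileup was 51.2 to 66.8 tags for Cox8a and 9.73 to 19.4 tags for Cox8b. Cox8b was thus below Cox8a in every library, and its SD of 9.47 points over the 7 libraries was the highest of all called members. Its call was also a weak one: at a −log10 q of at least 5 the peak remained in 3 of 7 libraries.

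Cox7a1 (chromosome 7, 30184171 to 30186030, plus strand) had a clearer peak. Its pileup percentiles were 82.95, 82.8, 82.1 and 83.3 in Nedd4L-cKO and 84.2, 78.7 and 85.8 in WT. Its partner Cox7a2 (chromosome 9, 79755241 to 79771422, minus strand, start at 79759853) had 89.6, 91.9, 89.6 and 90.1 in Nedd4L-cKO and 89.6, 90.4 and 91.8 in WT, above Cox7a1 in all 7 libraries. The gap was wider by fold. The fold percentile of Cox7a1 lay between 36.4 and 58.1, and that of Cox7a2 between 96.2 and 99.0. The Cox7a1 peak was short, at 825 bp in the median, beside 1099 bp for Cox7a2.

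Cox6a2 (chromosome 7, 128205435 to 128206366, minus strand) had no peak within 1 kb of its start. The nearest peak was 1487 to 1879 bp away in 5 libraries, and over 30 kb away (30650 and 30604 bp) in Nedd4L-cKO replicate 3 and WT replicate 2. Its partner Cox6a1 (chromosome 5, 115345652 to 115348958, minus strand) had pileup percentiles of 79.4 to 83.8 in Nedd4L-cKO and 82.3 to 83.2 in WT. The Cox6a1 peak was 1784 to 2049 bp long in 6 libraries and 975 bp in WT replicate 3. The 3 muscle isoforms were therefore unlike each other, with no peak at Cox6a2, a weak one at Cox8b and a clearer one at Cox7a1. Peak length did not set Cox7a1 (790 to 951 bp) apart from Cox8b (805 to 1242 bp). The shortest median of a ubiquitous member was 772 bp.

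The sort took ITGA7-positive cells and left out those with PECAM1 (an endothelial protein), SCA1 or leukocyte surface proteins. Sorted MuSCs could still hold fragments of myofibers, in which these isoforms are used. Of 10 myofiber markers 5 (Acta1, Myh1, Myh4, Tnnt3 and Tnni2) had a promoter peak in all libraries, Myh2 and Atp2a1 in 6, Ckm in 5, and Mb and Mylpf in none. Between 7 and 8 of the 10 were called per Nedd4L-cKO library and 5 to 8 per WT library. The endothelial markers Pecam1 and Cdh5 and the fibro-adipogenic markers Pdgfra and Ly6a were called in 0 libraries and Lum in 1, while Kdr, Tek and Dpt were called in all 7, so that 2 of 4 endothelial and 1 of 4 fibro-adipogenic markers had a peak throughout. The part of other cells in the peaks at Cox7a1 and Cox8b was not tested.

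**Figure D2:**
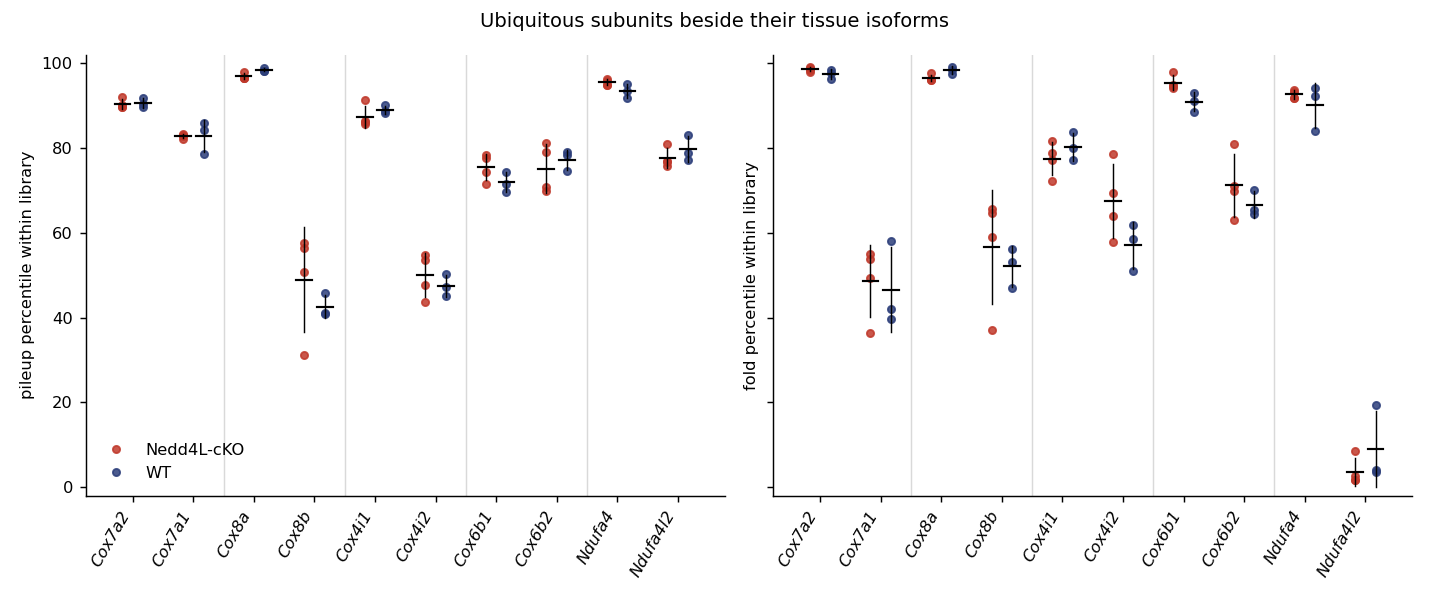
Pileup percentile (left) and fold percentile (right) within the library for ubiquitous subunits and their tissue isoforms. Each point is 1 library, red for Nedd4L-cKO (n = 4) and blue for WT (n = 3), the horizontal bar is the mean and the vertical line is 1 SD on either side. Cox8b lies under Cox8a and Cox7a1 under Cox7a2 in every library on both scales, and Ndufa4l2 is at most 19.4 by fold.

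Isoforms of other tissues were also mixed. Cox4i2, an isoform of lung that is induced by low oxygen, had a peak in all libraries with a median pileup percentile of 47.6 (range 43.8 to 54.8), and its ubiquitous partner Cox4i1 had 88.1 (85.5 to 91.2). The Cox4i2 start itself lay inside the peak in 5 of 7 libraries. Cox6b2, an isoform of testis, had 78.2 (69.7 to 81.1), which overlapped its partner Cox6b1 at 74.3 (69.7 to 78.4). By fold Cox6b2 was lower, at 69.8 against 94.1. Cox7b2 and Cox8c had no peak, and the nearest one was at least 55695 bp from the Cox7b2 start and 19968 bp from the Cox8c start. Ndufa4l2, a relative of Ndufa4 that is induced by low oxygen, had a pileup percentile of 77.1 (75.6 to 83.2), and Ndufa4, whose product is now placed in complex IV although its symbol puts it with complex I here, had 94.9 (91.7 to 96.3). Ndufb4b and Ndufb4c span 471 and 485 bp, beside 6767 bp for Ndufb4, and the nearest peaks were at least 26869 and 23114 bp from their starts. Counts at closely similar copies are uncertain, as reads that map equally well to several places were removed by the filter on mapping quality.

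**Figure D3:**
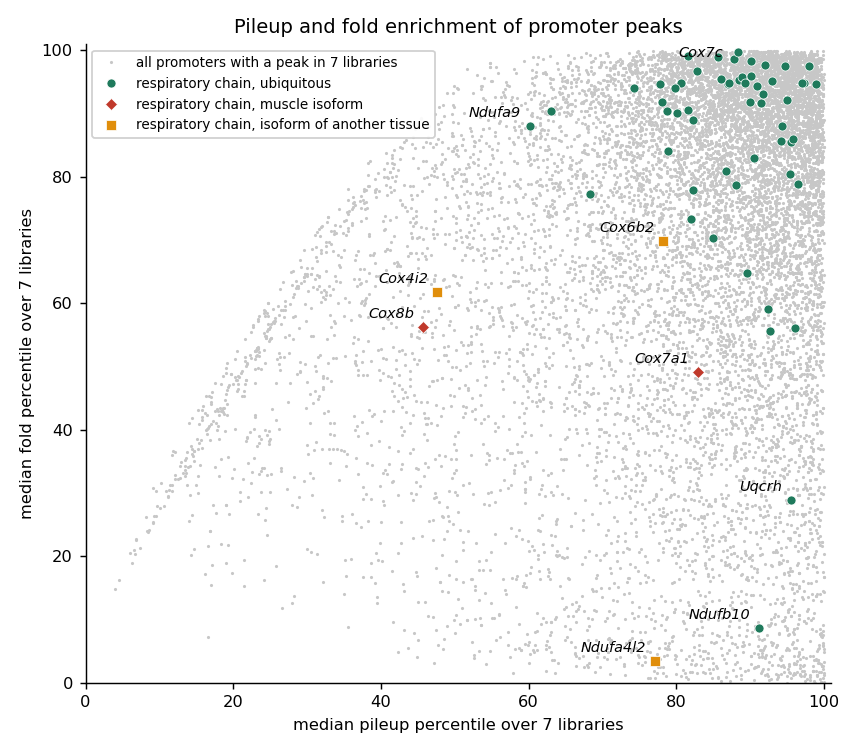
Median pileup percentile (x axis) against median fold percentile (y axis) over the 7 libraries for 12749 promoters with a peak in all libraries (grey) and 61 members among them. Most ubiquitous members (green) lie in the upper right, and Ndufb10 and Ndufa4l2 lie at the bottom right with fold percentiles under 10.

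A few members combined a high pileup with a low fold. Of members with a median pileup percentile of at least 75, 5.36% had a median fold percentile under 10. The share was 3.57% of all such promoters called in every library. The genes Ndufb10 and Uqcrh were singled out after their values were seen. Ndufb10 had 91.2 by pileup and 8.72 by fold, Ndufa4l2 had 77.1 and 3.50, and Uqcrh, the hinge subunit of complex III, had 95.6 and 28.9. The ratio of pileup to fold is an approximate measure of the local background the peak was set against. It was 16.5 tags for Uqcrh, 16.3 for Ndufb10 and 12.5 for Ndufa4l2, beside a median of 7.50 over called members and 8.03 over all promoters. Other peaks within 5 kb covered 1948 bp at Ndufa4l2, 1033 bp at Ndufb10 and 0 bp at Uqcrh, whose own peak was 2924 bp long. Their part in the low fold was not tested. At a −log10 q of at least 5, Ndufb10 was called in 6 of 7 libraries and Ndufa4l2 in 1.

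The width and position of the peaks were described around the start. In 60 of the 62 called members the start lay inside the peak in all 7 libraries. The median peak reached 571 bp upstream and 638 bp downstream of the start in members, and 534 and 732 bp over all promoters called in every library. It reached further downstream than upstream in 33 members (53.2%), and in 66.2% of all such promoters. The longest peak was that of Uqcrh (2924 bp), and the shortest was that of Ndufa4l2 (696 bp).

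Many members have a neighbour that starts nearby on the opposite strand, called a shared promoter here. Whether the genes point away from each other was not asked. A protein-coding gene on the opposite strand started within 1 kb of 20 of the 62 called members (32.3%), and of 15.5% of all promoters called in every library. Such pairs included Ndufs1 with Eef1b2 (9 bp apart), Ndufa7 with Rps28 (10 bp), Sdhd with Timm8b (52 bp) and Sdha with Ccdc127 (77 bp), named here as examples of the count. The 20 shared promoters had a median pileup percentile of 90.3 and a median length of 1324 bp, and the 42 others 86.4 and 1173 bp. By fold the order was turned, with 88.5 for the shared and 91.1 for the other promoters. The called tissue isoforms Cox7a1, Cox8b, Cox4i2, Cox6b2 and Ndufa4l2 were all among the others, so the contrast also mixes in isoform class. A peak at a shared promoter cannot be assigned to either gene.

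**Figure D4:**
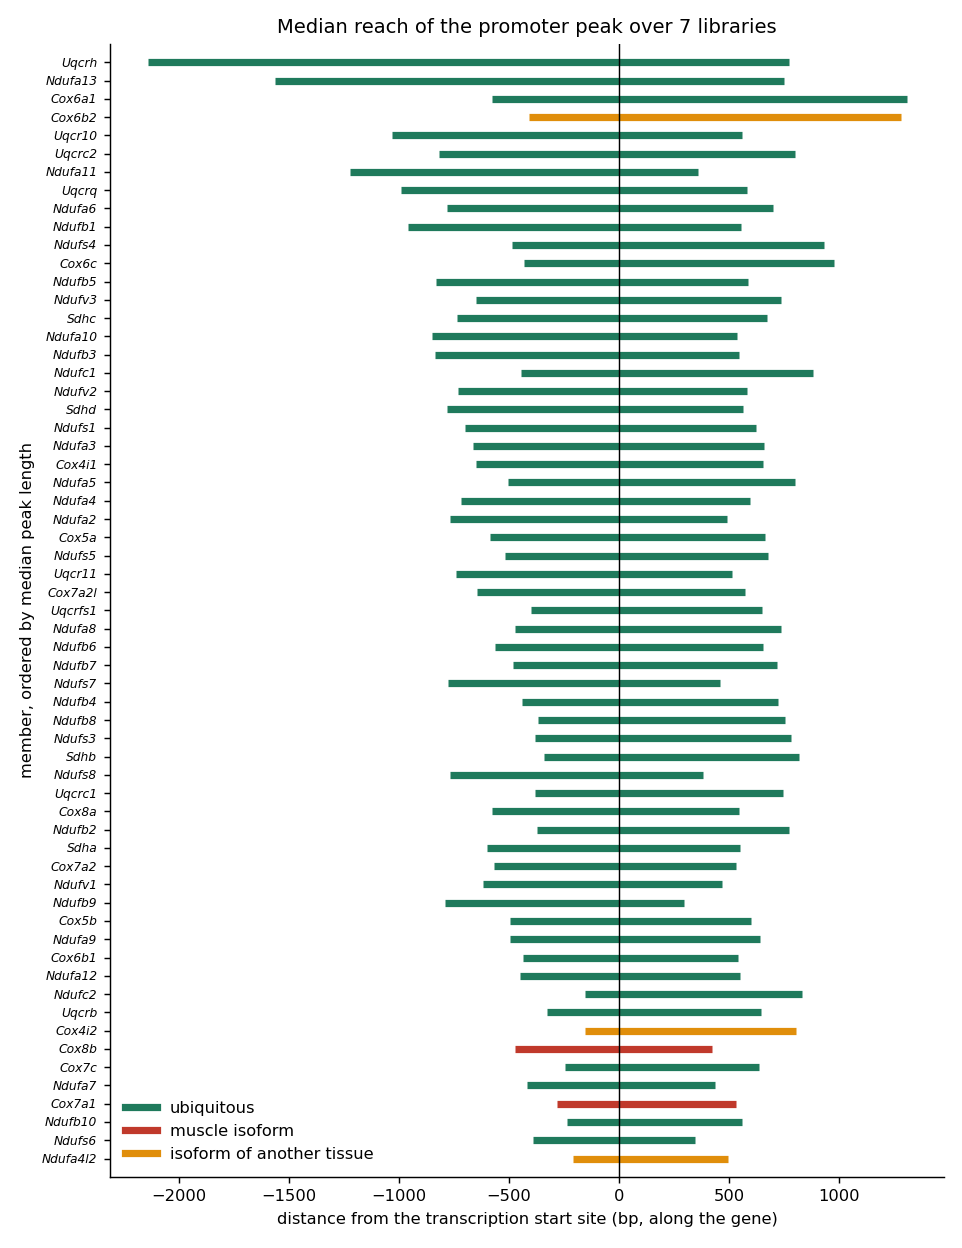
Reach of the promoter peak before (negative) and after (positive) the transcription start site in bp, as medians over the 7 libraries, for 61 called members ordered by peak length. Green bars are ubiquitous subunits, red bars the muscle isoforms Cox7a1 and Cox8b, and orange bars isoforms of other tissues. Uqcrh reaches furthest upstream.

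The sequences were then searched for motifs of factors known to act on these genes: NRF1 (GCGCATGCG), the ETS family with GABPA (CCGGAAG), YY1 (AAGATGGCG) and the estrogen-related receptors (TCAAGGTCA), and for the TATA box (TATAAA). Exact matches on either strand were counted from 250 bases before to 50 after the start. The NRF1 letters were found in 5 of 52 members (9.62%) and in 2.45% of all 16457 promoters. The ETS letters were found in 11 members (21.2%) and in 12.3% of promoters, and the YY1 letters in 5 members (9.62%) and 1.92% of promoters. Only Sdhd (1.92%) held the receptor motif, beside 0.340% of all promoters, and 6 members (11.5%) held the TATA letters, beside 13.5%. Among promoters with a peak in all libraries the shares were 10.0% of members and 3.69% of promoters for NRF1, 22.0% and 18.0% for ETS, and 10.0% and 3.00% for YY1. For the TATA letters they were 10.0% and 6.75%, so that the members lay under the share of all promoters and above that of promoters with a peak. The members with the YY1 letters were Ndufa9, Ndufc1, Ndufs4, Ndufs6 and Ndufs7, and in all 5 the match lay on the sense strand with its first base 23 to 36 bases after the start. Over all promoters 53.8% of the 327 YY1 matches were on the sense strand after the start. Neither Cox7a1 nor Cox7a2 held any of the 5, and Cox8a held the ETS letters. Cox8b held the TATA letters on the sense strand with the first base 5 bases after the start, outside the sequence shown above. In the other members with the TATA letters the first base lay between -235 and -52 relative to the start, on either strand.

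Promoters of 3 members are shown that hold a match within the 250 bases before the start and have no opposite-strand gene within 1 kb. Capitals mark the matches. In Cox6a1 (chr5:115348959-115349208, minus strand) an NRF1 match and its reverse complement overlap by all but a base, and an ETS match on the reverse strand begins 16 bases before the start. Cox6b1 (chr7:30626115-30626364, minus strand) has a reverse ETS match 28 bases before the start. Ndufb7 (chr8:83566508-83566757, plus strand) has an ETS match 20 bases before the start and a reverse TATA match 235 bases before it.
Cox6a1: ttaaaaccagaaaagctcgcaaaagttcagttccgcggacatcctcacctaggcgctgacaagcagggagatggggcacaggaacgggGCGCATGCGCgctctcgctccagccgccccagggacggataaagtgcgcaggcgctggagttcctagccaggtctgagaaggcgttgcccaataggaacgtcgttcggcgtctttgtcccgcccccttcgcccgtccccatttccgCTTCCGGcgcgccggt
Cox6b1: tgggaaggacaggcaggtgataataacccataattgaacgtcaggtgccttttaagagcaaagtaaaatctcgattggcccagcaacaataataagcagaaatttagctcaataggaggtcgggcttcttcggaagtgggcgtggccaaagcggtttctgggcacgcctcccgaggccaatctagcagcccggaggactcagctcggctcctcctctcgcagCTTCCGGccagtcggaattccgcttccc
Ndufb7: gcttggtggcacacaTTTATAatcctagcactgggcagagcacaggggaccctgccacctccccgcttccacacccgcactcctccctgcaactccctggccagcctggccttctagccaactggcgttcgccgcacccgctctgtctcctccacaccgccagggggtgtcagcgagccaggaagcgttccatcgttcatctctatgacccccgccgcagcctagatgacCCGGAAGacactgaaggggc

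The genotypes were then compared promoter by promoter. Ranks of pileup and of fold within the library, among promoters called in all libraries, were turned into normal scores. Their unit is 1 SD of a standard normal distribution and not a fixed number of percentile points. Differences in pileup and fold rank are given in these units, and log2 peak lengths were used as they were. limma was run over the 12750 promoters called in all libraries, with 4 Nedd4L-cKO and 3 WT libraries and Benjamini-Hochberg adjustment. No member passed an adjusted p of 0.05 in any of the 3 measures. The lowest adjusted p of a member was 1.00 for pileup, 0.999 for fold and 0.998 for length. Over all promoters 0% passed for pileup, 0% for fold and 0.0157% (2 promoters, neither a member) for length. The median difference over the 62 members, Nedd4L-cKO minus WT, was -0.01 normal-score units for pileup, 0.06 for fold and -0.01 for log2 length, beside 0.00, 0.01 and 0.00 over all promoters. For pileup 30 members were higher and 32 lower in Nedd4L-cKO, for fold 37 and 25, and for length 29 and 33. The median SE of a member was 0.119 for pileup and 0.153 for fold in normal-score units, and 0.0842 for log2 length.

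**Figure D5:**
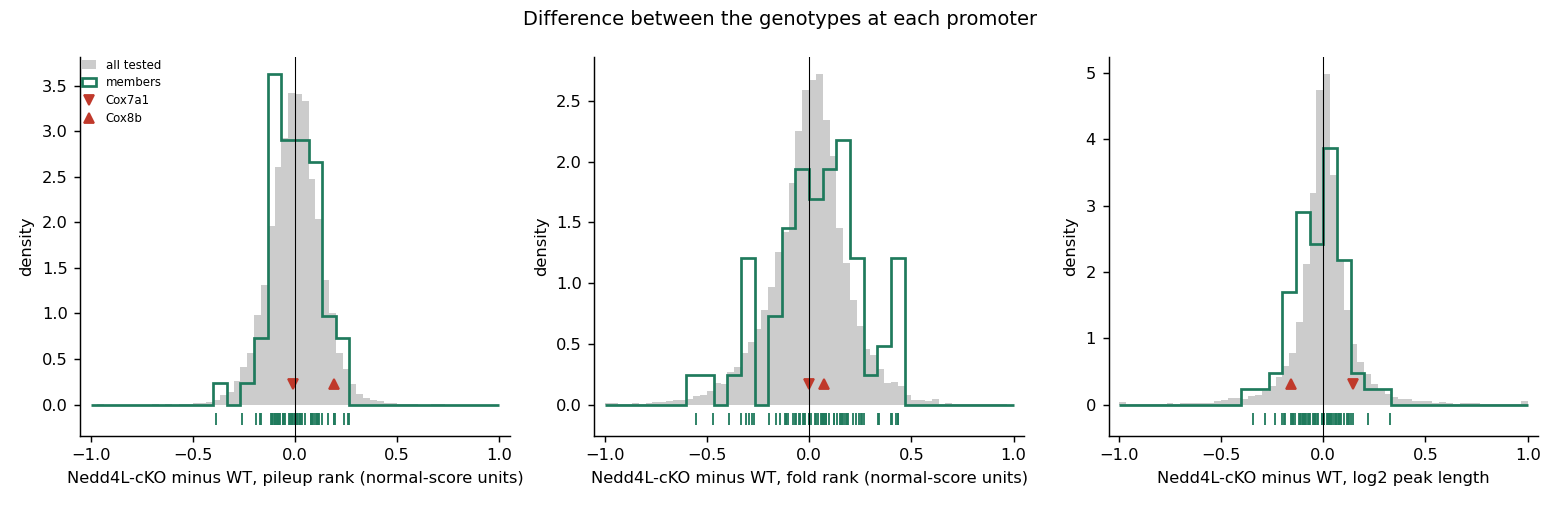
Difference between the genotypes (Nedd4L-cKO minus WT, x axes) in pileup rank, fold rank and log2 peak length, as densities over the 12750 promoters tested (grey) and the 62 members (green outline and ticks). Values beyond 1 are drawn at 1. The muscle isoforms Cox7a1 and Cox8b (red) lie within the range of the other members in all 3 panels.

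Without adjustment, p was under 0.05 in pileup for 3 members. Ndufb2 and Ndufa4 were higher in Nedd4L-cKO (2 of 62, beside 1.54% of all promoters) and Cox8a was lower (1 of 62, beside 1.65%). The pileup percentile of Cox8a was 96.9 ± 0.749 in Nedd4L-cKO (SD, n = 4) and 98.4 ± 0.377 in WT (SD, n = 3). The rank difference of Cox8a was -0.39 normal-score units (SE 0.118). Its p by limma was 0.00592 before and 1.00 after Benjamini-Hochberg adjustment. Cox8a was the 1 member whose genotypes did not overlap in pileup percentile. Such a lower value in every Nedd4L-cKO library was found for 1.89% of all promoters, and the opposite, which no member had, for 1.70%. Ndufb2, an accessory subunit of the membrane arm, had 90.6 ± 1.70 and 87.6 ± 1.49 (difference 0.26, SE 0.111, limma adjusted p = 1.00), and Ndufa4 had 95.5 ± 0.702 and 93.4 ± 1.69. Ndufs8, another core subunit of complex I, had the next lowest p among the members that were lower in Nedd4L-cKO (95.7 ± 1.48 and 97.2 ± 0.165). Its rank difference was -0.26 normal-score units (limma adjusted p = 1.00).

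In fold rank, Cox6b1 and Ndufb2 were higher in Nedd4L-cKO at an unadjusted p under 0.05 (2 of 62, beside 1.95% of promoters), and Ndufa12, Cox8a and Ndufs8 were lower (3 of 62, beside 2.20%). Cox6b1, the subunit at the contact between complex IV monomers, had fold percentiles of 95.4 ± 1.74 in Nedd4L-cKO and 90.9 ± 2.25 in WT. Its rank difference was 0.43 normal-score units (SE 0.158, limma adjusted p = 0.999). Ndufa12, an accessory subunit next to the NADH module, had 98.8 ± 0.230 and 99.5 ± 0.407 (difference -0.55, SE 0.173, limma adjusted p = 0.999). The fold percentiles of Cox6b1 and Cox5a were higher in every Nedd4L-cKO than in every WT library, as were 4.46% of all promoters. Those of Ndufa12 were lower in every one, as were 1.36% of promoters. Cox5a, like Uqcrc2 and Uqcr10 in the counts of peak length, was named after its values were seen.

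In peak length, Ndufs5 was longer in Nedd4L-cKO at an unadjusted p under 0.05 (1 of 62, beside 1.96% of promoters) and Ndufs4 was shorter (1 of 62, beside 1.47%). The Ndufs5 peak was 1281 ± 46.1 bp in Nedd4L-cKO and 1175 ± 22.1 bp in WT, a ratio of 1.09 (log2 difference 0.12, SE 0.0448, limma adjusted p = 0.998). The Ndufs4 peak was 1370 ± 68.3 and 1520 ± 69.2 bp, a ratio of 0.901. Ndufs5, Cox7a1, Uqcrc2 and Uqcr10 had longer peaks in every Nedd4L-cKO library (2.57% of all promoters), and no member had shorter ones in every Nedd4L-cKO library (1.73%). The Cox7a1 peak was 886 ± 59.9 bp in Nedd4L-cKO and 799.7 ± 10.6 bp in WT (log2 difference 0.15, SE 0.0613, limma adjusted p = 0.998). Ndufb1 followed Ndufs4 among the shorter ones, with 1436 ± 114 and 1633 ± 138 bp.

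In pileup and fold rank, the called muscle isoforms did not differ between the genotypes beyond the spread between libraries. Cox7a1 had a pileup percentile of 82.8 ± 0.506 in Nedd4L-cKO and 82.9 ± 3.73 in WT. Its rank difference was -0.01 normal-score units (SE 0.119, limma adjusted p = 1.00). Cox8b had 48.9 ± 12.3 and 42.6 ± 2.76 (difference 0.19, SE 0.139, limma adjusted p = 1.00). In fold rank the differences were -0.0012 (SE 0.145) for Cox7a1 and 0.07 (SE 0.177) for Cox8b, in the same units.

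Other genes of the pathway, from lists that were not picked for how they moved, were read in the same way. All 42 assembly factors, which build the complexes and are not part of them, were called in all libraries (63.0% of all promoters were), with a median pileup percentile of 89.7 and a fold percentile of 93.5. Among ATP synthase subunits and electron carriers 18 of 19 were called in all, and Cyct, the cytochrome c of testis, in none. This list also held Cyc1 of complex III and Ndufab1 of complex I, which the name rule did not match (pileup percentiles 88.1 and 89.5). All 11 regulators were called in all libraries, including Nrf1, Gabpa, Yy1, Esrra and Tfam. At a −log10 q of at least 5 this held for 9 of 11, as the coactivators Ppargc1a and Ppargc1b were then called in 4 and 2 libraries. Ppargc1a, a coactivator of mitochondrial biogenesis, had the lowest pileup percentile of the regulators (45.1, range 34.7 to 49.7) and Yy1 the highest (99.0). Gabpa shares its promoter peak with the ATP synthase gene Atp5j, and both had 97.6. Of 95 genes matched by the names of cytosolic ribosomal proteins, a pattern that also takes in S6 kinases and gene copies, 85 were called in all (89.5%), with a pileup percentile of 91.8 and a fold percentile of 81.4. Of the X-linked subunits, Ndufb11 stood at 87.4 by pileup, Ndufa1 at 62.1 and Cox7b at 61.5, and all 3 were called in every library.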

How the data were processed

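ATAC-seq libraries of 5000 sorted MuSCs, 4 Nedd4L-cKO and 3 WT, were grouped by the genotype in their labels. The authors trimmed adapters with Trimmomatic (0.39), aligned pairs to mm10 with BWA-MEM (0.7.17), filtered on mapping quality and removed duplicates with Picard (2.26.3). Per the file headers, broad peaks were called per library with MACS2 (2.2.7.1), without a control, from single read ends shifted by -100 bp and extended to 200 bp. The pileup deposited by the authors is a signal, the mean coverage by extended tags without scaling. Fold enrichment, as deposited, is the ratio of that signal to a background of up to 10000 bp around it. The −log10 p-value and −log10 q-value of each peak were also deposited by the authors. The gapped lists deposited by the authors repeat these ratio and −log10 values and mark narrow peaks inside broad ones. The third list of each library holds the same peaks and was not used.

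Starts came from the RefSeq promoter table on GRCm38.p6 (52 of 67 members, 16457 of 20232 genes) and otherwise from the outer end of the gene span, with strand from RefSeq or, by name, from GENCODE. The promoter window was 1 kb on either side and the overlap at least 1 bp. With several starts the outermost in the table was taken. Percentiles were taken among all peaks on chromosomes 1 to 19, X and Y of a library. limma 3.58.1 (R 4.3.3, lmFit and eBayes, Benjamini-Hochberg adjustment, no covariate) was run over the 12750 promoters with a peak in all 7 libraries. It was also tried on simulated pileup scores. Every shift planted there was larger than any member's pileup difference, so the trial does not show whether differences of that size would be found. Requiring a peak in all libraries keeps only promoters that are open in both genotypes. Depth and peak number per library set which weak peaks are called. Libraries were taken as separate animals, which the labels do not state, so that p-values measure the spread between these libraries. No list of artifact-prone regions was used here. Python 3.11.15, numpy 2.4.6, pandas 2.3.3, scipy 1.17.1 and matplotlib 3.10.9 were used.

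The members and the gene lists were chosen with earlier results of these data known. Named members were the muscle isoforms and isoforms of other tissues with their partners, members without a peak, the Sdh genes, the 3 highest and 3 lowest by pileup, and the 2 with the lowest p in each direction and measure, as well as those that did not overlap between the genotypes. Alternatives were TSS windows of 500 bp and 2.5 kb, a −log10 q of at least 5, broad peaks that hold a narrow peak, the same number of peaks per library, percentiles among promoter peaks, a replicate block, tags kept as a covariate, trend and robust options, merged regions as features, the peak nearest to the start, motifs before the start alone, and leaving out each library. Starts at the outer end of the gene span for every gene were an alternative chosen after seeing the data. A member that is part of the totals is not reported singly here.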

Additional observations from a re-analysis of the deposited data

Results flagged for a closer look

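Sets of 4 Nedd4L-cKO values (pileup percentile, fold percentile and peak length) were tested for a part of the members named above. Of 72 sets, 8 held a library that stood apart by Dixon's test, which chance gives for about 1 set in 20. The sets were not independent, as the 3 measures of a member came from the same peak. Some of these members were also picked for their low p by limma. The 3 WT libraries are too few for this test. Nedd4L-cKO replicate 4 stood apart with a pileup percentile of 91.2 for Cox4i1 (others 85.5 to 86.3) and of 98.0 for Cox8a (others 96.4 to 96.6). Among the Nedd4L-cKO libraries it also had the longest peaks at Ndufa4l2 (854 bp, others 682 to 702 bp) and at Ndufs4 (1472 bp, others 1328 to 1344 bp). The Ndufs4 peak was longer in WT, at up to 1579 bp. Nedd4L-cKO replicate 4 had the most tags and peaks of the 7, and the part of depth in its values was not tested. Nedd4L-cKO replicate 1 stood apart at Cox6b1, with a peak of 878 bp (others 1013 to 1035 bp), and at Ndufa4l2, with a fold percentile of 8.57 (others 1.61 to 2.68). Nedd4L-cKO replicate 2 had a Cox8a peak of 1158 bp (others 1125 to 1130 bp). In Nedd4L-cKO replicate 3 the fold percentile of Sdha was 96.7 (others 98.6 to 99.0).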

How the results depend on the processing

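No member passed adjustment in pileup rank, fold rank or peak length under any alternative (0 members each). Members called in all libraries numbered 62 under most settings, 61 among peaks that hold a narrow peak, 57 at a −log10 q of at least 5 and 60 with starts at the outer end of the gene span, which missed Cox5a and Cox7a2 and was chosen after seeing the data. With a 2.5 kb window Cox6a2 was called in 5 libraries. The median pileup percentile of 88.4 became 75.3 at a −log10 q of at least 5, 86.5 among peaks that hold a narrow peak and 58.1 among promoter peaks, and the median fold percentile of 90.5 became 82.2, 89.2 and 73.5, as the peaks ranked against changed. The members' median pileup percentile was above that of all promoters at the other settings compared (windows, narrow peaks, equal numbers of peaks, nearest peak, outer starts) and below it, 75.3 beside 78.0, at a −log10 q of at least 5. Leaving out a library gave 88.1 to 88.9 and 90.3 to 91.1. Before the start alone, the NRF1 letters were found in 3 members and the YY1 and receptor letters in 0. The other matches lie after the start or, for NRF1 in Uqcr11, across it.

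Of 303 alternative values of single members, 15 changed sign, all for Cox7a1 and Cox8b. These isoforms were followed whatever their difference, and with all libraries Cox7a1 was near 0 in pileup (-0.0103) and fold (-0.0012). The other members followed were picked for the lowest p in each direction, which made a change of sign unlikely for them. The replicate block was run without Nedd4L-cKO replicate 4. The pileup difference of Cox7a1 became 0.00102 normal-score units under this block, and 0.00101 when that library was left out without a block. It became 0.0113 with tags kept as a covariate, and lay between -0.14 and 0.0897 when a library was left out. Its fold difference became 0.00062 with a 2.5 kb window, 0.00524 under the replicate block, 0.0505 with the covariate and 0.0377 over merged regions, and lay between -0.075 and 0.116 when a library was left out. Without a library the fold difference of Cox8b lay between -0.0038 and 0.22 and its length difference between -0.26 and 0.0038 on the log2 scale, where it was -0.16 with all libraries and 0.0038 without WT replicate 1. The replicate block changed no call of a member. Same-numbered libraries deviated with r = -0.208, 0.0489 and -0.135, and libraries with unlike numbers with r from -0.198 to 0.207. These values do not show whether the libraries were prepared in pairs. Within lane 1, without WT replicate 3, no member passed either. With 4 against 3 libraries, small shifts at single promoters are not detectable.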
